A study of Medicago truncatula with 16 samples.

Results

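The stage by PEG interaction in cotyledons is the difference between the responses of cotyledons to polyethylene glycol (PEG) at the 5 mm and the 1 mm stage of germination, written (C5P - C5) - (C1P - C1). Its members were all genes of the count table, in the 8 cotyledon libraries of the 16 libraries of the series, and 23060 of 44473 genes had enough counts to be tested. A value above 0 means that the level after PEG, relative to the untreated level, was higher at 5 mm than at 1 mm. The study sequenced RNA from 2 organs, radicle and cotyledon, of germinating seeds of the legume *Medicago truncatula*, cultivar A17, with no mutant or transgene in any group, and its published analysis covered the radicles. C5P and C1P were cotyledons of seeds with a 5 mm and a 1 mm protruded radicle that had been kept for 3 days in a PEG8000 solution of -1.7 MPa at 10 °C in the dark. C5 and C1 were cotyledons of the same stages without PEG, and each of the 4 groups had 2 biological replicates of pooled seeds. No group was kept in the cold and dark without PEG, so osmotic stress and those 3 days cannot be told apart in either response. The sources speak both of desiccated and of freshly harvested material and give different numbers of seeds per sample, so the state of the cotyledons at extraction is not settled here.

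PEG lowers the water potential around a seed and so restricts water uptake. Orthodox seeds survive drying, germinating seeds lose that ability as the radicle grows, and in *M. truncatula* an osmotic treatment can bring it back in radicles only within a short window after protrusion, while cotyledons remain more tolerant. The programme of seed maturation, driven in Arabidopsis by abscisic acid (ABA) and transcription factors such as ABI3 and ABI5, fills the embryo with storage proteins, oil bodies and late embryogenesis abundant (LEA) proteins, which protect cell structures during drying. The interaction asks which genes of the cotyledon responded differently to PEG within and after that window, as judged by radicle length.

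A total of 282 genes passed the test of the interaction (edgeR quasi-likelihood test, Benjamini-Hochberg adjusted p under 0.05 and an absolute log2 value over 1), which is 1.22% of the genes tested. Of these, 129 genes (0.559% of those tested) had a value above 0 and 153 genes (0.663%) a value below 0. Their adjusted p lay between 0.003 and 0.05, so that many stood close to the threshold. The median of the interaction was 2.46 over the 129 genes and -2.62 over the 153 genes (log2), against -0.0384 over all genes tested. At an unadjusted p under 0.05 there were 4810 genes.

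The number of genes called depended on single libraries. Without C1P replicate 2, 138 genes were called, or 0.598% of those tested, with 68 above 0 and 70 below 0, and 118 of the 282 were among them. Leaving out each of the other libraries in turn gave 987 genes without C1P replicate 1, 119 without C5 replicate 2, 3 without C5P replicate 2, 2 without C5P replicate 1, 2 without C5 replicate 1, 1 without C1 replicate 2 and 0 without C1 replicate 1. In that last edgeR fit 3283 genes had an unadjusted p under 0.05 and the lowest adjusted p was 0.053, and DESeq2 was run on all 8 libraries only, where it called 1784 genes. All 282 genes kept the sign of their interaction in each of the 8 fits that left out 1 library. Those fits reuse libraries on which the genes were chosen, so the kept sign is no separate support.

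Several features of the libraries stood beside these counts. The estimated counts summed to between 22012976 and 22866748 per cotyledon library. C1P replicate 2 had a chloroplast-encoded share of 4.06%, against 0.313 to 0.923% in the other 7 cotyledon libraries, and the lowest TMM factor, 0.701, next to 0.84 in C1P replicate 1. Between the libraries of a group, Pearson's r across genes was 0.97 in C5P, 0.961 in C5, 0.942 in C1P and 0.973 in C1 (log2 scale, genes not being independent replicates), and no pair was as close as counting alone would give (chi-square per gene 21.2 to 113). The part of these features in the calls was not tested. Scaled to library totals without TMM factors, the median of all genes moved by 0.477 to 0.439, and 229 of 300 called genes (76.3%) were above 0, against 45.7% with TMM, so the balance of directions is relative to the TMM scale.

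As a check of the labelled tissue, 5 of 6 photosynthesis genes had a higher mean level in cotyledons. The 6 summed to 112 to 489 CPM there (here counts relative to the total of their library), against 20.1 to 109 in radicles. Of the 5, the photosystem II gene MtrunA17_Chr4g0015471 was above 0 in 1 cotyledon library only (3.83 CPM in C1 replicate 2). The ribulose-bisphosphate carboxylase gene MtrunA17_Chr4g0072241 was lower in cotyledons (0.0438 to 0.746 CPM) than in radicles (0.95 to 23.1 CPM). Of 11 genes of families set as radicle markers (casparian strip, WOX and gravitropism annotations), 2 were higher in cotyledons. These were the casparian strip gene MtrunA17_Chr2g0290281 and the WOX gene MtrunA17_Chr1g0175651, so the families were not particular to radicles. The 11 genes summed to 75 to 308 CPM in cotyledons, against 147 to 673 in radicles. The sum of the 11 genes was 308 and 274 CPM in C5P, 173 and 144 in C5, 110 and 102 in C1P, and 85.3 and 75 in C1. None of the 11 genes was at 0 in all cotyledon libraries, but the WOX gene MtrunA17_Chr5g0403701 was above 0 in 1 of them only. The sum therefore differed with stage and treatment. A large share of it in C5P came from 1 WOX gene, MtrunA17_Chr8g0346251 (263 and 231 CPM in C5P, 19.2 and 17.7 in C5), and its part in the interaction was not tested. In whole cotyledons, fewer cells of a type and less RNA per cell cannot be told apart.

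Both PEG responses were broad, and the interaction picked out genes in which they were unequal. C5P against C5 called 4879 genes (21.2% of those tested, with 2081 higher or 9.02% and 2798 lower or 12.1%), and C1P against C1 called 6613 genes (28.7%, with 3171 higher or 13.8% and 3442 lower or 14.9%). Of the 129 genes above 0, 48 fell in C1P without a call in C5P, 24 rose in C5P without a call in C1P, 27 rose at both stages, 16 rose in C5P and fell in C1P, and 12 fell at both stages. Of the 153 genes below 0, 57 rose in C1P without a call in C5P, 46 fell in C5P without a call in C1P, 21 fell in C5P and rose in C1P, 13 rose at both stages and 10 fell at both. The remaining 2 and 6 genes had no call in either response. Called responses of opposite direction at both stages were thus found in 37 genes.

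**Figure D1:**
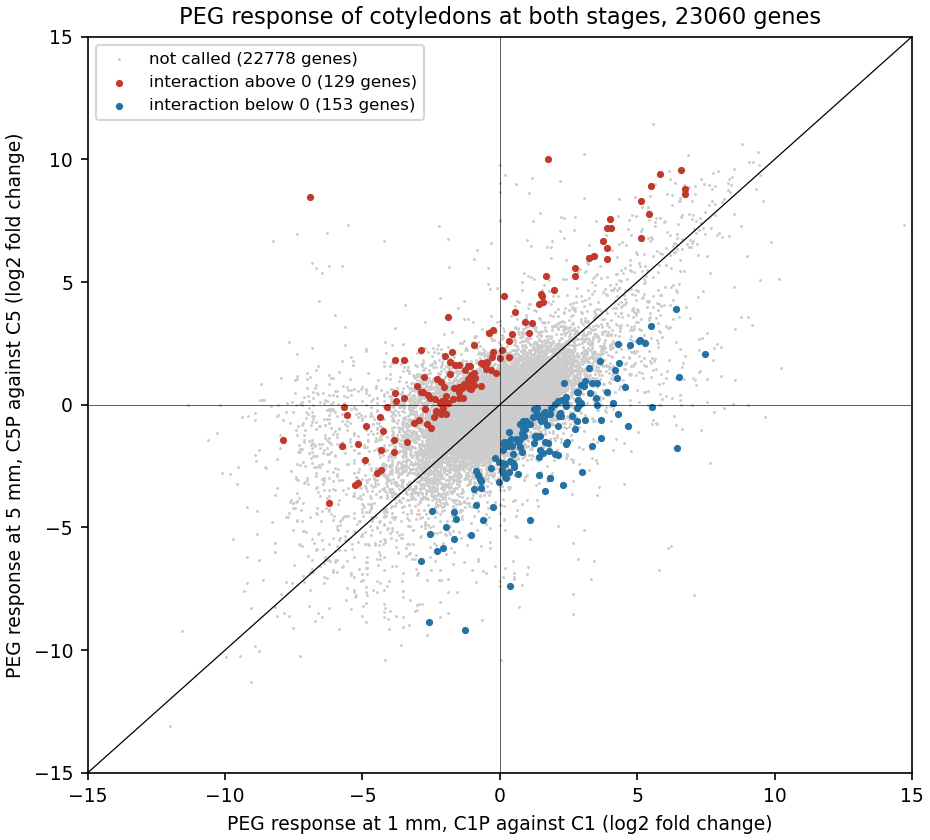
Log2 fold change after PEG at 5 mm (C5P against C5, vertical axis) and at 1 mm (C1P against C1, horizontal axis) for the 23060 genes tested, with the line of equal response. The 129 genes with an interaction above 0 (red) lie above the line and the 153 genes below 0 (blue) lie under it, while the 22778 genes not called (grey) surround it.

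Compared by stage without PEG, C5 against C1 called 1988 of all genes tested (8.62%, with 5.7% higher and 2.92% lower in C5), and of the 282 genes it called 90 of the 129 as lower in C5 and 128 of the 153 as higher in C5. After PEG, C5P against C1P called 1433 of all genes (6.21%, with 4.01% higher and 2.21% lower in C5P), among them 57 of the 129 as higher in C5P and 35 of the 153 as lower in C5P. Most of these genes therefore differed between the stages before treatment, and 98 of the 153 that were higher in C5 than C1 had no call between C5P and C1P, as had 67 of the 129 that were lower in C5. These contrasts share libraries with the interaction and describe it. They are no separate support.

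The group that stood apart differed between the directions, as the choice of genes by the sign of the contrast in these libraries favours. The shares that follow describe the calls and are no separate support. Among the 129 genes above 0, both C5 libraries lay below all 6 others in 57 genes (44.2%, against 10.8% of all genes tested), both C1P libraries below all others in 55 (42.6%, against 15.6%), and both C1 libraries above all others in 55 (42.6%, against 9.88%). Among the 153 genes below 0, both C1 libraries lay below all others in 91 genes (59.5%, against 9.6%) and both C5 libraries above all others in 75 (49%, against 14.5%). The genes came from all 8 chromosomes, with between 0.825% (chromosome 6) and 1.58% (chromosome 7) of the tested genes of a chromosome called, beside 1 chloroplast-encoded gene. No set of genes was tested against another here.

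A first group of genes was raised by PEG at both stages and by a larger factor at 5 mm, where the untreated level was lower than at 1 mm. In CPM with TMM factors of the 8 cotyledon libraries, MtABI3 (MtrunA17_Chr7g0237841), the B3-domain factor whose Arabidopsis counterpart is a central regulator of seed maturation, had 99.9 and 99.3 CPM in C5P, 5.54 and 3.68 CPM in C5, 319 and 199 CPM in C1P, and 87.0 and 91.9 CPM in C1. C5 alone was low, and C5P lay just above C1 and below C1P. MtABI3 rose by 4.43 ± 0.33 in C5P and by 1.54 ± 0.29 in C1P (log2 fold change ± SE, 2 libraries per group), and the interaction was 2.90 ± 0.41 (edgeR adjusted p = 0.025). Without C1P replicate 2 it was 2.60 and still called.

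A bZIP factor (MtrunA17_Chr7g0266041), from the family of leucine zipper proteins to which ABI5 belongs, had 316 and 224 CPM in C5P, 2.96 and 2.32 CPM in C5, 321 and 265 CPM in C1P, and 20.9 and 22.9 CPM in C1. Its treated groups overlapped, whereas C5 lay below C1 (log2 -3.05). The interaction was 2.94 ± 0.36 (adjusted p = 0.018) and 2.80 without C1P replicate 2. A C3H zinc finger factor (MtrunA17_Chr2g0324781), with the highest mean level among the named genes of this pattern, had 1575 and 1503 CPM in C5P, 3.21 and 3.23 CPM in C5, 2459 and 1314 CPM in C1P, and 35.7 and 47.7 CPM in C1. Here too the treated groups overlapped and the untreated ones did not, and the interaction was 3.40 ± 0.45 (adjusted p = 0.022).

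Legumain (MtrunA17_Chr4g0056561), a vacuolar protease that processes storage proteins in seeds, had 265 and 263 CPM in C5P, 12.6 and 8.20 CPM in C5, 530 and 469 CPM in C1P, and 126 and 129 CPM in C1. All 4 groups were apart, in the order C1P, C5P, C1 and C5, and the interaction was 2.69 ± 0.34 (adjusted p = 0.02). An F-box gene (MtrunA17_Chr1g0172321), whose family gives ubiquitin ligases their targets, had 82.0 and 61.8 CPM in C5P, 159 and 145 CPM in C1P, and 2.63 and 2.72 CPM in C1. In C5 it had 0.125 and 0.0759 CPM, which are 3 and 2 counts, so that the size of its interaction (3.59 ± 0.44, adjusted p = 0.018) rests on few reads.

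The remaining named genes of this first pattern were MtrunA17_Chr3g0126451, MtrunA17_Chr2g0279571, MtrunA17_Chr8g0385511 and MtrunA17_Chr5g0404281, all without an annotated function. They rose in C5P by log2 7.59, 5.24, 9.58 and 8.81 and in C1P by log2 3.99, 1.68, 6.60 and 6.73, in this order. In each of the 4 genes both C5 libraries were the lowest of the 8, between 0.292 and 2.17 CPM. MtrunA17_Chr5g0404281 was not called without C1P replicate 2, where its interaction was 2.14, and most values of MtrunA17_Chr2g0279571 were not whole numbers, so that it shares reads with similar genes.

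A second group fell after PEG at 1 mm and fell less, stayed without a call or rose at 5 mm. Stearoyl-[acyl-carrier-protein] 9-desaturase (MtrunA17_Chr1g0159321), which puts the first double bond into fatty acids in plastids, had 21.9 and 17.8 CPM in C5P, 5.92 and 5.32 CPM in C5, 2.19 and 2.14 CPM in C1P, and 34.1 and 27.7 CPM in C1. The response turned round with stage, since PEG raised it at 5 mm (log2 1.82 ± 0.23) and lowered it at 1 mm (log2 -3.83 ± 0.25). The interaction of 5.65 ± 0.34 had the joint lowest adjusted p of all genes (0.003), ranged from 5.50 to 5.82 over the fits without 1 library, and was called in 7 of those 8 fits, more than any other gene.

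A serine/threonine protein kinase (MtrunA17_Chr1g0186431) had 61.2 and 41.2 CPM in C5P, 139 and 175 CPM in C5, 17 and 13.2 CPM in C1P, and 532 and 541 CPM in C1. The 4 groups were apart, PEG lowered it at both stages, and the fall was smaller at 5 mm (log2 -1.62) than at 1 mm (log2 -5.15), with an interaction of 3.53 ± 0.37 (adjusted p = 0.013). An ABC-type xenobiotic transporter (MtrunA17_Chr1g0202221), a membrane pump of a large family, had 35.5 and 23.4 CPM in C5P, 23.7 and 38.4 CPM in C5, 6.62 and 4.54 CPM in C1P, and 91.9 and 102 CPM in C1. C5P and C5 overlapped, and the interaction was 4.04 ± 0.47 (adjusted p = 0.015), with the limit that all its libraries held values that were not whole, so that it shares reads with similar genes.

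Among transcription factors of this pattern, a Trihelix factor (MtrunA17_Chr1g0179561) had 209 and 128 CPM in C5P, 63.7 and 99.9 CPM in C5, 71.5 and 61.5 CPM in C1P, and 333 and 317 CPM in C1. It was highest in C1, its interaction was 3.33 ± 0.44 (adjusted p = 0.022), and it shares reads with similar genes. An AP2-EREBP factor (MtrunA17_Chr1g0195151), of the ethylene-response and DREB family, had 80.2 and 94.3 CPM in C5P, 109 and 99.1 CPM in C5, 48.3 and 55.6 CPM in C1P, and 257 and 258 CPM in C1. Only the C1P response was called for it (log2 -2.31, against -0.26 in C5P), and its interaction was 2.05 ± 0.28 (adjusted p = 0.024).

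A gene annotated as angiotensin-converting enzyme 2 (MtrunA17_Chr7g0263161) had 11.7 and 12.2 CPM in C5P, 4.29 and 2.81 CPM in C5, 32.6 and 26.8 CPM in C1P, and 109 and 99.5 CPM in C1. It rose in C5P (log2 1.75), fell in C1P (log2 -1.81), and had an interaction of 3.56 ± 0.36 (adjusted p = 0.012). A second F-box gene (MtrunA17_Chr5g0441461) was strongly lowered at both stages, with 57.0 and 33.2 CPM in C5P, 745 and 705 CPM in C5, 20.8 and 21.3 CPM in C1P, and 1594 and 1521 CPM in C1. Its interaction of 2.20 was called with all 8 libraries (adjusted p = 0.043) but not without C1P replicate 2.

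The other 6 named genes with a value above 0 carried no annotated function. They were MtrunA17_Chr7g0230061 (interaction 5.59), MtrunA17_Chr5g0403021 (5.14), MtrunA17_Chr4g0075751 (3.98), MtrunA17_Chr6g0453161 (3.91), MtrunA17_Chr2g0323551 (3.87) and MtrunA17_Chr2g0318611 (3.80). The highest of them, MtrunA17_Chr7g0230061, had 10.4 and 7.27 CPM in C5P, 8.17 and 10.6 CPM in C5, 0.782 and 0.389 CPM in C1P, and 29.9 and 31.8 CPM in C1. All 6 were also called without C1P replicate 2, and MtrunA17_Chr5g0403021, MtrunA17_Chr4g0075751, MtrunA17_Chr6g0453161 and MtrunA17_Chr2g0318611 share reads with similar genes.

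**Figure D2:**
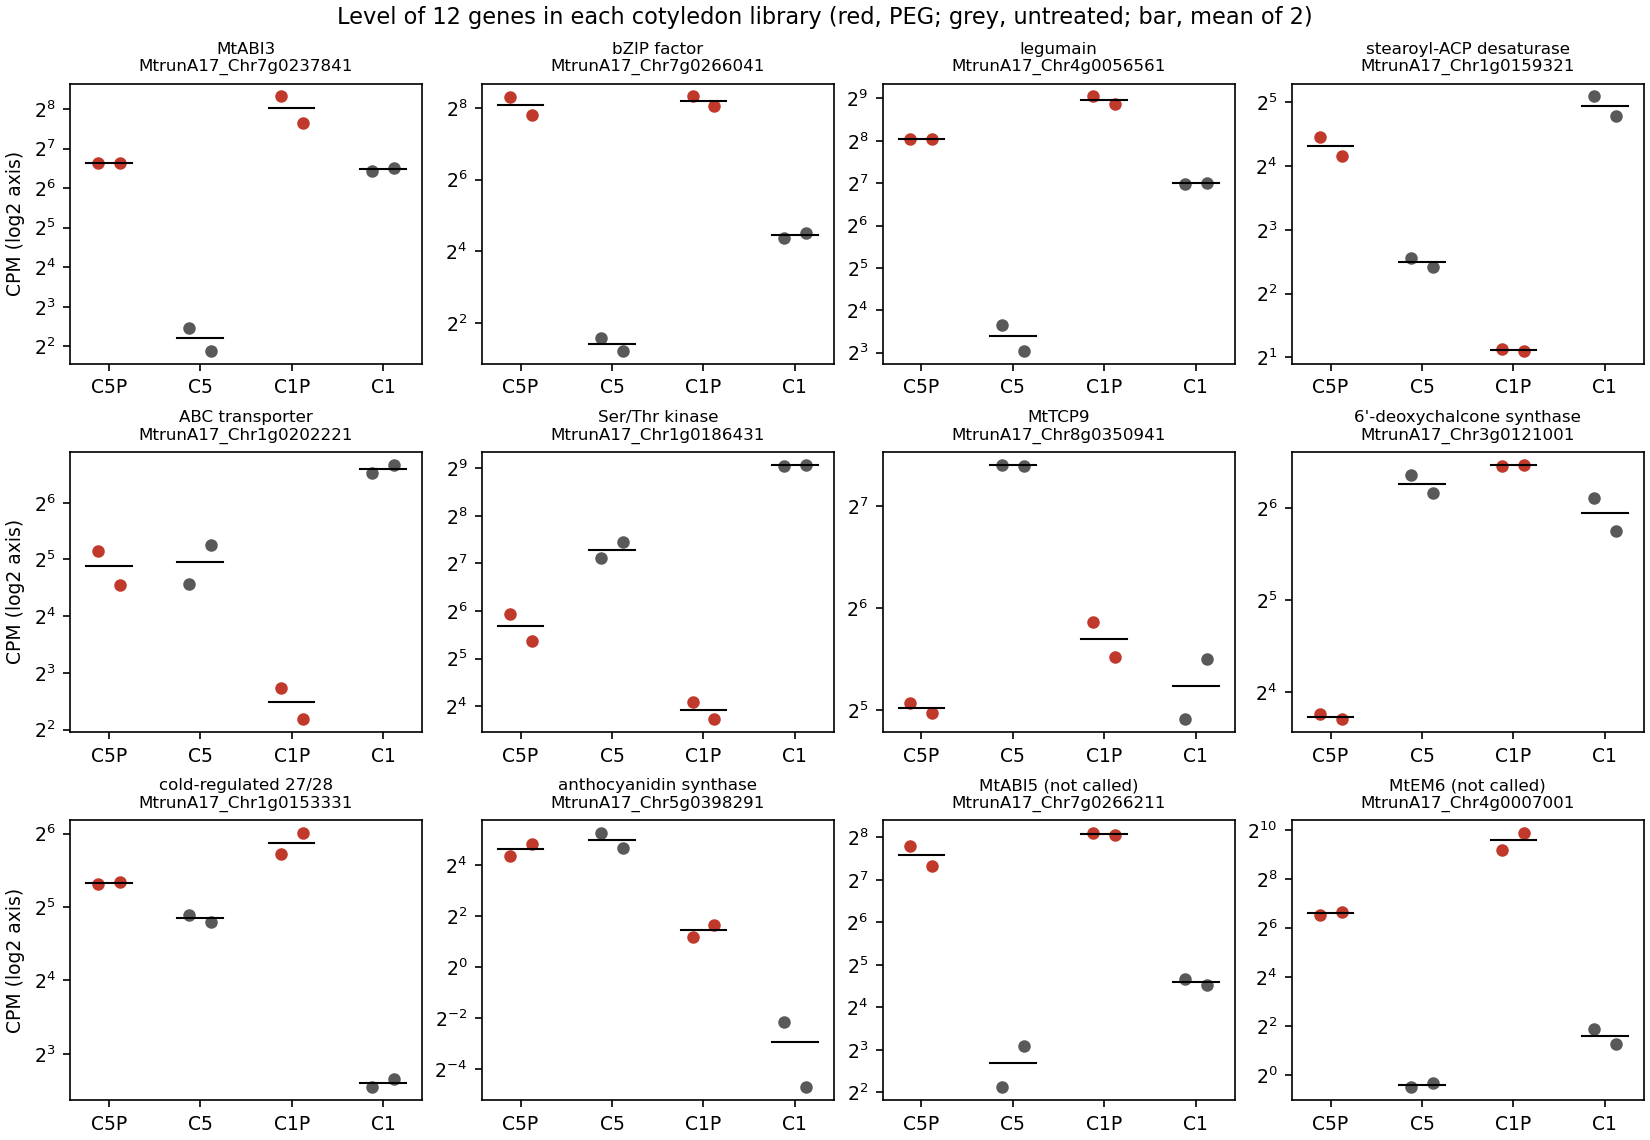
CPM of 12 genes in the 8 cotyledon libraries (log2 axis), with PEG-treated libraries in red, untreated libraries in grey and a bar at the mean of the 2 libraries of a group. MtABI3, the bZIP factor and legumain have their lowest level in C5, the desaturase, ABC transporter and kinase in C1P, and cold-regulated 27/28 and anthocyanidin synthase in C1, while MtTCP9 is highest in C5 and 6'-deoxychalcone synthase lowest in C5P.

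Among genes with a value below 0, one group had its lowest level in untreated 1 mm cotyledons and rose after PEG at 1 mm. A cold-regulated protein 27/28 gene (MtrunA17_Chr1g0153331), whose Arabidopsis counterparts are induced by cold and act on the circadian clock, had 39.7 and 40.5 CPM in C5P, 29.7 and 27.8 CPM in C5, 52.8 and 64.6 CPM in C1P, and 5.82 and 6.29 CPM in C1. PEG raised it in C1P (log2 3.28 ± 0.21) and had no call in C5P (log2 0.48), with an interaction of -2.80 ± 0.28 (edgeR adjusted p = 0.012). A second gene of that annotation (MtrunA17_Chr4g0044801) was lower in level, with 4.64 and 2.92 CPM in C5P, 2.67 and 2.58 CPM in C5, 8.45 and 7.52 CPM in C1P, and 0.571 and 0.499 CPM in C1. C1 was again the lowest group, and the interaction was -3.36 ± 0.50 (adjusted p = 0.03). Both were called without C1P replicate 2. The PEG-treated seeds had been in the cold, and the part of the cold in these values cannot be told apart from that of PEG.

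A MYB-HB-like factor (MtrunA17_Chr5g0402631) had 30.7 and 33.2 CPM in C5P, 34.6 and 24.9 CPM in C5, 38.0 and 36.6 CPM in C1P, and 6.89 and 7.64 CPM in C1. CRR3 (MtrunA17_Chr1g0160901), annotated as a subunit of the chloroplast NAD(P)H dehydrogenase complex, had 24.8 and 27.1 CPM in C5P, 17.7 and 18.5 CPM in C5, 28.5 and 37.0 CPM in C1P, and 4.72 and 4.53 CPM in C1. In both genes C1 was the low group and did not overlap with any other, and the interactions were -2.26 ± 0.31 (adjusted p = 0.024) and -2.30 ± 0.30 (adjusted p = 0.021). Anthocyanidin synthase (MtrunA17_Chr5g0398291), an enzyme of the pathway to anthocyanins and tannins, had 20.5 and 28.4 CPM in C5P, 38.3 and 25.1 CPM in C5, 2.29 and 3.18 CPM in C1P, and 0.228 and 0.0384 CPM in C1. It was high at 5 mm and low at 1 mm, the C1 libraries held 6 and 1 counts, and its interaction of -4.67 was not called without C1P replicate 2 (-4.42).

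A second group below 0 fell after PEG at 5 mm and had no called fall at 1 mm. MtTCP9 (MtrunA17_Chr8g0350941), a factor of the TCP family that regulates growth and cell division in plants, had 33.5 and 31.3 CPM in C5P, 170 and 168 CPM in C5, 58.1 and 45.7 CPM in C1P, and 30.0 and 45.1 CPM in C1. C5 alone was high, and PEG lowered it there by 2.38 on the log2 scale (log2 -2.38 ± 0.26, against 0.47 ± 0.25 in C1P). The interaction was -2.85 ± 0.36 (adjusted p = 0.019).

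6'-Deoxychalcone synthase (MtrunA17_Chr3g0121001), an enzyme of the branch of flavonoid synthesis that leads to the isoflavonoids of legumes, had 13.5 and 13.0 CPM in C5P, 82.4 and 71.9 CPM in C5, 87.8 and 89.1 CPM in C1P, and 69.2 and 53.9 CPM in C1. Only C5P was low, and the interaction was -3.06 ± 0.30 (adjusted p = 0.012). A linoleate 9S-lipoxygenase (MtrunA17_Chr2g0329911), which oxidises unsaturated fatty acids, had 13.2 and 14.7 CPM in C5P, 37.3 and 38.6 CPM in C5, 26.7 and 17.8 CPM in C1P, and 11.3 and 15.8 CPM in C1. It was highest in C5, and its interaction was -2.15 ± 0.37 (adjusted p = 0.044). A phosphoric monoester hydrolase (MtrunA17_Chr3g0121431), which shares reads with similar genes, and a DCC1-like oxidoreductase (MtrunA17_Chr3g0117991) were likewise highest in C5 and had interactions of -2.12 and -2.91, the second not called without C1P replicate 2.

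Other genes moved in opposite directions or differed in the size of a rise. MtrunA17_Chr5g0395561, with no annotated function, had 4.48 and 3.63 CPM in C5P, 34.5 and 30.3 CPM in C5, 21.1 and 23.0 CPM in C1P, and 5.90 and 6.60 CPM in C1. It fell in C5P (log2 -3.0 ± 0.23) and rose in C1P (log2 1.82 ± 0.22), and its interaction of -4.81 ± 0.31 (adjusted p = 0.003) was called in 6 of the 8 fits without 1 library, although it shares reads with similar genes. Glucomannan 4-beta-mannosyltransferase (MtrunA17_Chr7g0264621), which builds the backbone of the cell wall polymer mannan, had 7.44 and 6.10 CPM in C5P, 19.2 and 15.5 CPM in C5, 48.1 and 18.9 CPM in C1P, and 3.27 and 2.0 CPM in C1. The C1P libraries differed widely, and the interaction was -5.03 ± 0.64 (adjusted p = 0.02), or -5.55 without C1P replicate 2.

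A glycine-rich protein gene (MtrunA17_Chr5g0438501) rose at both stages, to 303 and 387 CPM in C5P against 26.2 and 20.1 CPM in C5, and to 337 and 576 CPM in C1P against 5.33 and 5.41 CPM in C1. Its interaction of -2.51 (adjusted p = 0.042) was not called without C1P replicate 2, and it shares reads with similar genes. A carboxylesterase (MtrunA17_Chr6g0477231), which shares reads too, had an interaction of -2.68 with calls in 3 of the 8 fits without 1 library. A precursor of the signal peptides CEP13/CEP14 (MtrunA17_Chr2g0284361) had 0 and 0 counts in C5P, 24 and 21 in C5, 53 and 21 in C1P, and 37 and 47 in C1. C5P was thus at least 6.97-fold lower than C5, against a floor of 3 counts per library that covers counting error only, and its fitted interaction was called (adjusted p = 0.049) but not without C1P replicate 2.

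The 5 further named genes below 0 were MtrunA17_Chr3g0103711 (interaction -5.40), MtrunA17_Chr5g0417371 (-4.27), MtrunA17_Chr6g0476831 (-4.26) and MtrunA17_Chr8g0340821 (-4.03), with no annotated function, and the chloroplast-encoded MtrunA17_CPg0492371 (-5.42). The chloroplast gene had 593 and 763 CPM in C5P, 167 and 156 CPM in C5, 339 and 1274 CPM in C1P, and 4.38 and 4.60 CPM in C1. C1 was low by itself and C1P replicate 2, the library with the high chloroplast share, was the highest, and without it the interaction was -4.17 and still called. It shares reads with similar genes. MtrunA17_Chr5g0417371 was high in C5 only (144 and 77.1 CPM, against 0.678 to 3.90 CPM in the 6 other libraries) and was not called without C1P replicate 2.

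**Figure D3:**
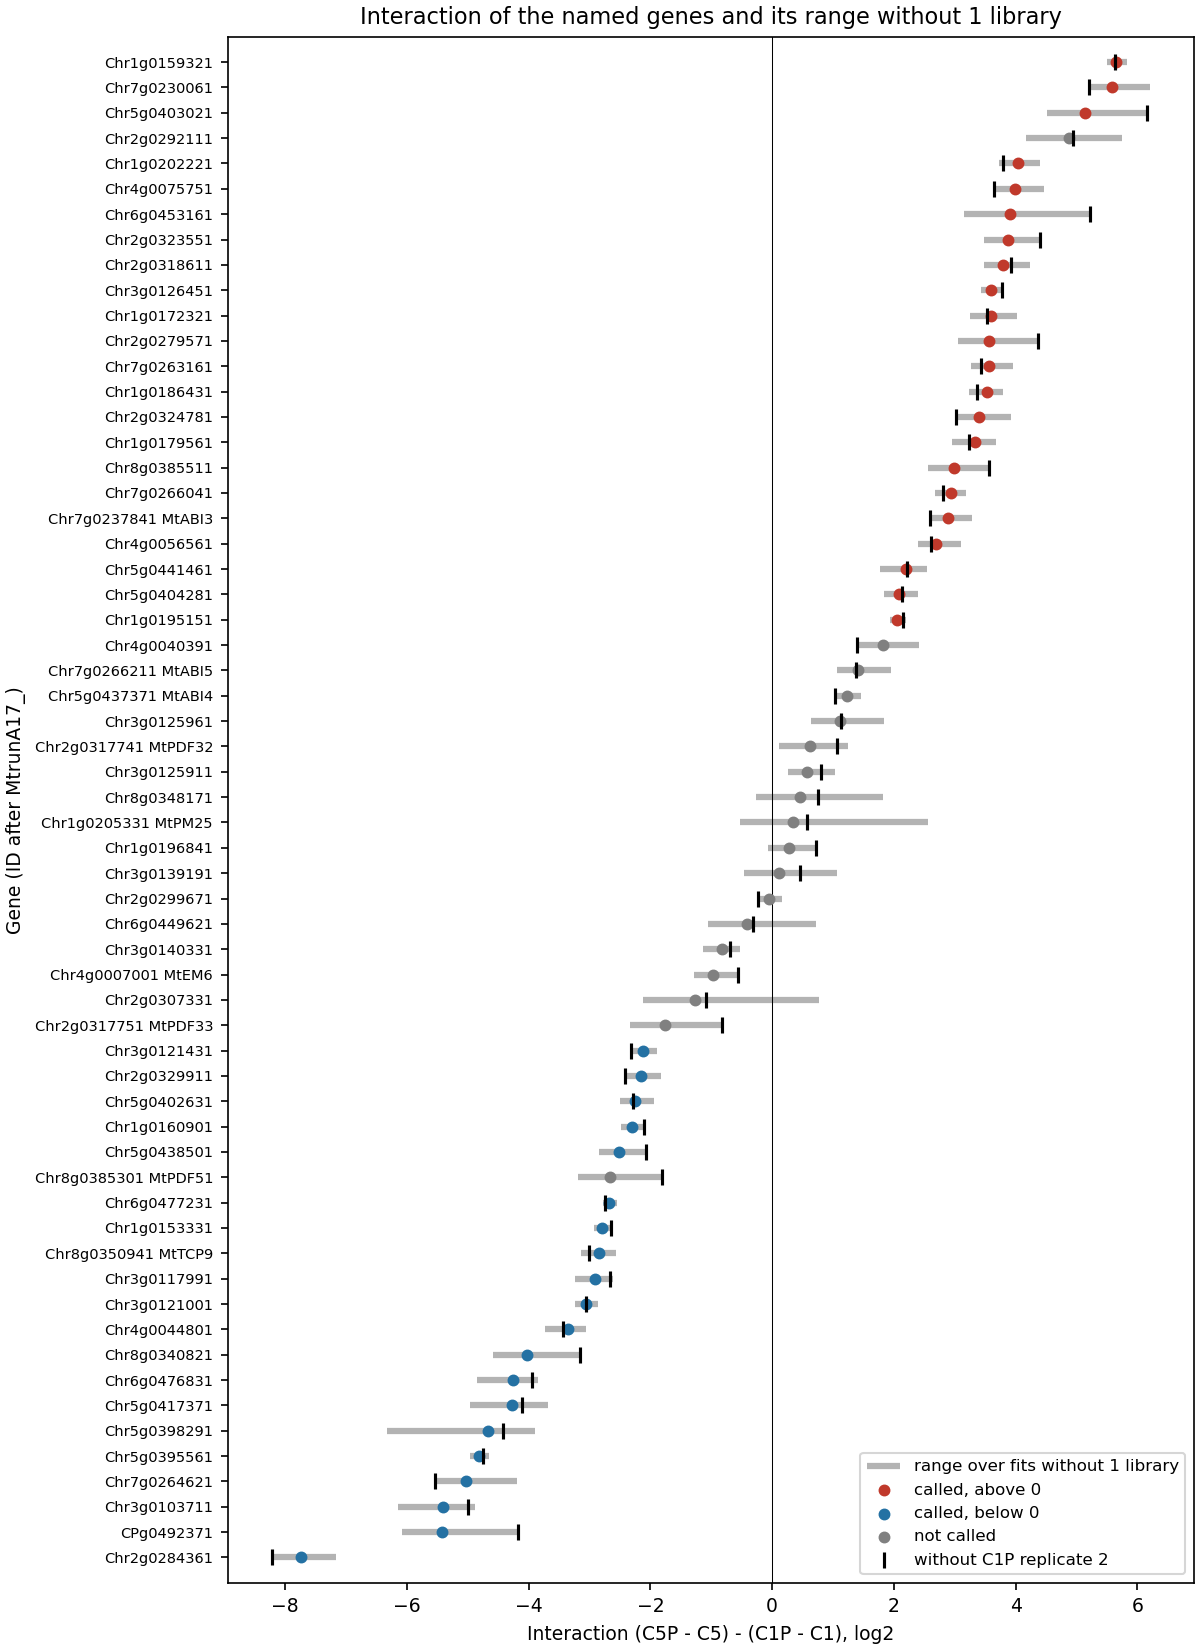
Interaction (log2, horizontal axis) of the named genes that were tested, with points for the value in all 8 libraries, grey bars for the range over the 8 fits without 1 library and ticks for the value without C1P replicate 2. No called gene (red above 0, blue below 0) has a bar that reaches 0, but these genes were chosen on the same libraries. The bars of the LEA genes MtrunA17_Chr1g0205331 and MtrunA17_Chr8g0348171 and of the 4 oleosins reach 0.

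Other regulators and protective proteins of the seed maturation programme that the study names were not called for the interaction by edgeR in the 8 libraries, and some of them were called in other models. MtABI5 (MtrunA17_Chr7g0266211), the bZIP factor of ABA signalling, had 221 and 161 CPM in C5P, 4.33 and 8.54 CPM in C5, 277 and 266 CPM in C1P, and 25.4 and 23.1 CPM in C1. PEG raised it in C5P (log2 4.89) and C1P (log2 3.48), and the difference of 1.41 ± 0.45 did not pass in edgeR (adjusted p = 0.15), whereas DESeq2 (adjusted p = 0.031) and the 16-library edgeR model (1.45, adjusted p = 0.032) called it. MtABI4 (MtrunA17_Chr5g0437371), an AP2 factor of ABA and sugar signalling in Arabidopsis, had 28.8 and 25.7 CPM in C5P, 15.2 and 15.2 CPM in C5, 65.7 and 48.6 CPM in C1P, and 66.5 and 82.9 CPM in C1. Its interaction of 1.23 ± 0.32 did not pass in edgeR (adjusted p = 0.10) but was called by DESeq2 (adjusted p = 0.02) and in the 16-library edgeR model (1.26, adjusted p = 0.037). Neither PEG response of MtABI4 was called, and its stage difference without PEG was (log2 -2.29).

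The orthologue of SOMNUS (MtrunA17_Chr4g0040391), a C3H zinc finger protein that represses germination in Arabidopsis, had 206 and 197 CPM in C5P, 0.875 and 1.40 CPM in C5, 379 and 188 CPM in C1P, and 5.52 and 5.87 CPM in C1. It rose at both stages, C5P and C1P overlapped, and the interaction of 1.81 ± 0.51 did not pass in edgeR (adjusted p = 0.12) but was called by DESeq2 (adjusted p = 0.013) and in the 16-library edgeR model (1.85, adjusted p = 0.026). The 16-library model and DESeq2 called 1870 and 1784 genes in all, against 282. A GATA factor (MtrunA17_Chr3g0140331) had an interaction of -0.82 ± 0.35 (adjusted p = 0.23).

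Among LEA genes, MtPM25 (MtrunA17_Chr1g0205331) had 325 and 378 CPM in C5P, 2.17 and 0.266 CPM in C5, 704 and 943 CPM in C1P, and 3.81 and 3.38 CPM in C1. Its interaction of 0.35 ± 0.85 (adjusted p = 0.84) moved between -0.52 and 2.57 when 1 library was left out, the C5 libraries being far apart. MtEM6 (MtrunA17_Chr4g0007001) had 94.0 and 102 CPM in C5P, 0.709 and 0.797 CPM in C5, 579 and 957 CPM in C1P, and 3.65 and 2.42 CPM in C1, with an interaction of -0.97 ± 0.46 (adjusted p = 0.27). An LEA_2 gene (MtrunA17_Chr8g0348171) had an interaction of 0.46 ± 0.70. All 3 LEA genes rose at both stages by at least 7.01 on the log2 scale.

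The 4 oleosins that the study names, which coat the oil bodies of seeds, had interactions of 0.27 (MtrunA17_Chr1g0196841), 0.11 (MtrunA17_Chr3g0139191), -0.41 (MtrunA17_Chr6g0449621) and -1.27 (MtrunA17_Chr2g0307331), and a diacylglycerol O-acyltransferase of oil synthesis (MtrunA17_Chr2g0299671) -0.05 ± 0.38. These 5 genes rose at both stages, and none of the interactions passed the test. The defensins MtPDF32 (MtrunA17_Chr2g0317741), MtPDF33 (MtrunA17_Chr2g0317751) and MtPDF51 (MtrunA17_Chr8g0385301), small antimicrobial proteins, had interactions of 0.63, -1.77 and -2.66 without a call by edgeR, and DESeq2 called that of MtPDF51 (adjusted p = 0.049). C1P replicate 2 was their highest library (248, 535 and 18.9 CPM in that order).

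Both named alcohol dehydrogenases, enzymes of fermentation, fell at both stages and had interactions of 1.11 ± 0.48 (MtrunA17_Chr3g0125961) and 0.58 ± 0.39 (MtrunA17_Chr3g0125911) without a call. A peroxidase gene (MtrunA17_Chr2g0292111) had 25 and 28 counts in C5P, 257 and 114 in C5, 0 and 0 in C1P, and 38 and 17 in C1, so that C1P was at least 5.98-fold lower than C1, and its interaction did not pass (adjusted p = 0.20). These 3 genes share reads with similar genes. The other named peroxidase (MtrunA17_Chr5g0404721) had at most 11 counts in a cotyledon library and was not tested.

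Described by list, the interaction called few genes of any pathway. The lists were drawn from annotations of the study's supplementary tables, which cover genes that responded in radicles or lay in regions of changed accessibility, so that each holds only part of its family. Of 30 lists, 19 had no gene called by edgeR among 371 tested, where 1.22% of all genes were. In those 19 lists 0 to 33 genes had an unadjusted p under 0.05, and DESeq2 called 0 to 9. Of all 23060 genes tested, 4810 had an unadjusted p under 0.05 and DESeq2 called 1784. The counts of that kind in the lists below are to be read beside these. For the PEG responses of the lists, the shares over all genes tested were 9.02% higher and 12.1% lower in C5P. In C1P they were 13.8% higher and 14.9% lower.

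Of 20 LEA and dehydrin genes, 17 rose in C5P (median log2 7.67 over the list), where 9.02% of all genes did. In C1P 17 rose (median 6.83), against 13.8% of all genes. None of the 20 was called for the interaction by edgeR. Its median was 0.333 over the list, against -0.0384 over all genes. At an unadjusted p under 0.05 there were 5 genes above 0, and DESeq2 called 4. All 7 oleosins rose at both stages (medians 5.44 in C5P and 6.34 in C1P), none was called for the interaction (median 0.112, with 1 gene at an unadjusted p under 0.05 and 0 by DESeq2). Of 8 seed storage protein genes, 4 rose in C5P and 7 in C1P, and the median interaction was 0.034 with no call by edgeR, 2 genes at an unadjusted p under 0.05 and 1 call by DESeq2.

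Of 125 ribosomal protein genes, 6 rose in C5P (median log2 0.487), where 9.02% of all genes did. In C1P 96 of them rose (median 1.41), where 13.8% of all genes did. The difference passed the test in 0 of them by edgeR, although only 7 lay above 0 and the median interaction was -0.935, against -0.0384 over all genes. At an unadjusted p under 0.05 there were 30 below and 3 above 0, and DESeq2 called 8 lower and 1 higher. Of all 23060 genes tested, 4810 and 1784 passed these limits, in this order and in both directions together. The median was -0.599 without C1P replicate 2 and -0.439 with library totals, the last on a scale whose median over all genes was 0.439.

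Of 31 genes for cyclins and kinesins, which drive and carry out cell division, 3 rose and 2 fell in C5P (median log2 -0.0225). There 9.02% of all genes rose and 12.1% fell. In C1P 2 rose and 11 fell (median -1.14), where 13.8% of all genes rose and 14.9% fell. The median interaction was 0.983, or 0.868 with groups at 3 counts or fewer set to that floor, 25 genes lay above 0, 9 had an unadjusted p under 0.05 and DESeq2 called 4 higher, while edgeR called 0. Without C1P replicate 2 the median was 0.819.

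Organelle-encoded genes followed C1P replicate 2. Of 81 chloroplast-encoded genes, which include the photosystem and ribosome genes of the plastid, 19 rose in C5P and 75 in C1P. Of all genes, 9.02% and 13.8% did. The median interaction of the chloroplast-encoded genes was -1.77 and 1 gene was called lower. Without C1P replicate 2 the median was -0.132, close to that of all genes. The 20 mitochondrion-encoded genes had a median of -1.96 with all libraries and -0.121 without that library, and none was called by edgeR, with 3 at an unadjusted p under 0.05 and 2 called by DESeq2. Proteinase inhibitors, which block digestive proteases of insects and microbes, had a median of -3.07 over 9 genes, or -1.43 with the 4 genes that have a group at the floor set to that floor, -2.07 without C1P replicate 2, and no call by edgeR, with 4 at an unadjusted p under 0.05 and 2 called by DESeq2.

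Transcription factor families had 1 call each or fewer by edgeR, where 1.22% of all genes were called. The called members were the AP2-EREBP factor above (1 of 34), the bZIP factor above (1 of 16) and the MYB-HB-like factor above (1 of 34, below 0). At an unadjusted p under 0.05, 4 AP2-EREBP factors lay above and 4 below 0, against 5 and 0 bZIP and 7 and 4 MYB factors. DESeq2 called 3 above and 1 below 0, 3 and 0, and 0 and 2, in this order. Of 22 bHLH factors edgeR called none, with 6 at an unadjusted p under 0.05 and 1 called by DESeq2. Of 37 protein phosphatases, which include the negative regulators of ABA signalling, 4 rose and 4 fell in C5P, where 9.02% and 12.1% of all genes did. In C1P 5 rose and 13 fell, where 13.8% and 14.9% of all genes did. The median interaction of the phosphatases was 0.45, with no call by edgeR and 5 by DESeq2.

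The study's own lists were formed on radicle libraries. Cluster 1, its group of genes raised in R1P and tied to re-induced tolerance, had 878 tested genes, of which 249 rose in C5P and 475 in C1P, where 9.02% and 13.8% of all genes did. For the interaction edgeR called 7 above 0 and 6 below 0, where 1.22% of all genes were called, and DESeq2 called 28 above and 51 below 0. Its median was -0.508, against -0.0384 over all genes. Cluster 2, in the copy used here, had 1007 tested genes with 14 calls above and 4 below 0 by edgeR and 36 above and 48 below 0 by DESeq2 (median -0.343). In both clusters edgeR thus had more calls above 0 and DESeq2 more below 0. DESeq2 called 1784 of all genes, and the balance of directions among those is not given here. The balance in a list by DESeq2 can therefore not be read as a trait of that list. The DT-DAR genes, whose chromatin was more open in tolerant radicles, had 15 calls above and 7 below 0 among 610 by edgeR and 64 above and 29 below 0 by DESeq2 (median 0.0605). Cluster 5, its counterpart among genes lowered in R1P, had 1 call in each direction among 91 genes by edgeR and 12 above and 1 below 0 by DESeq2 (median 0.651, or 0.555 with groups at the floor set to it). Of the genes of cluster 5, 43 fell in C5P and 57 in C1P, where 12.1% and 14.9% of all genes did. In radicles, on the libraries that defined it, 71 of its genes were called above 0, which is no independent evidence.

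**Figure D4:**
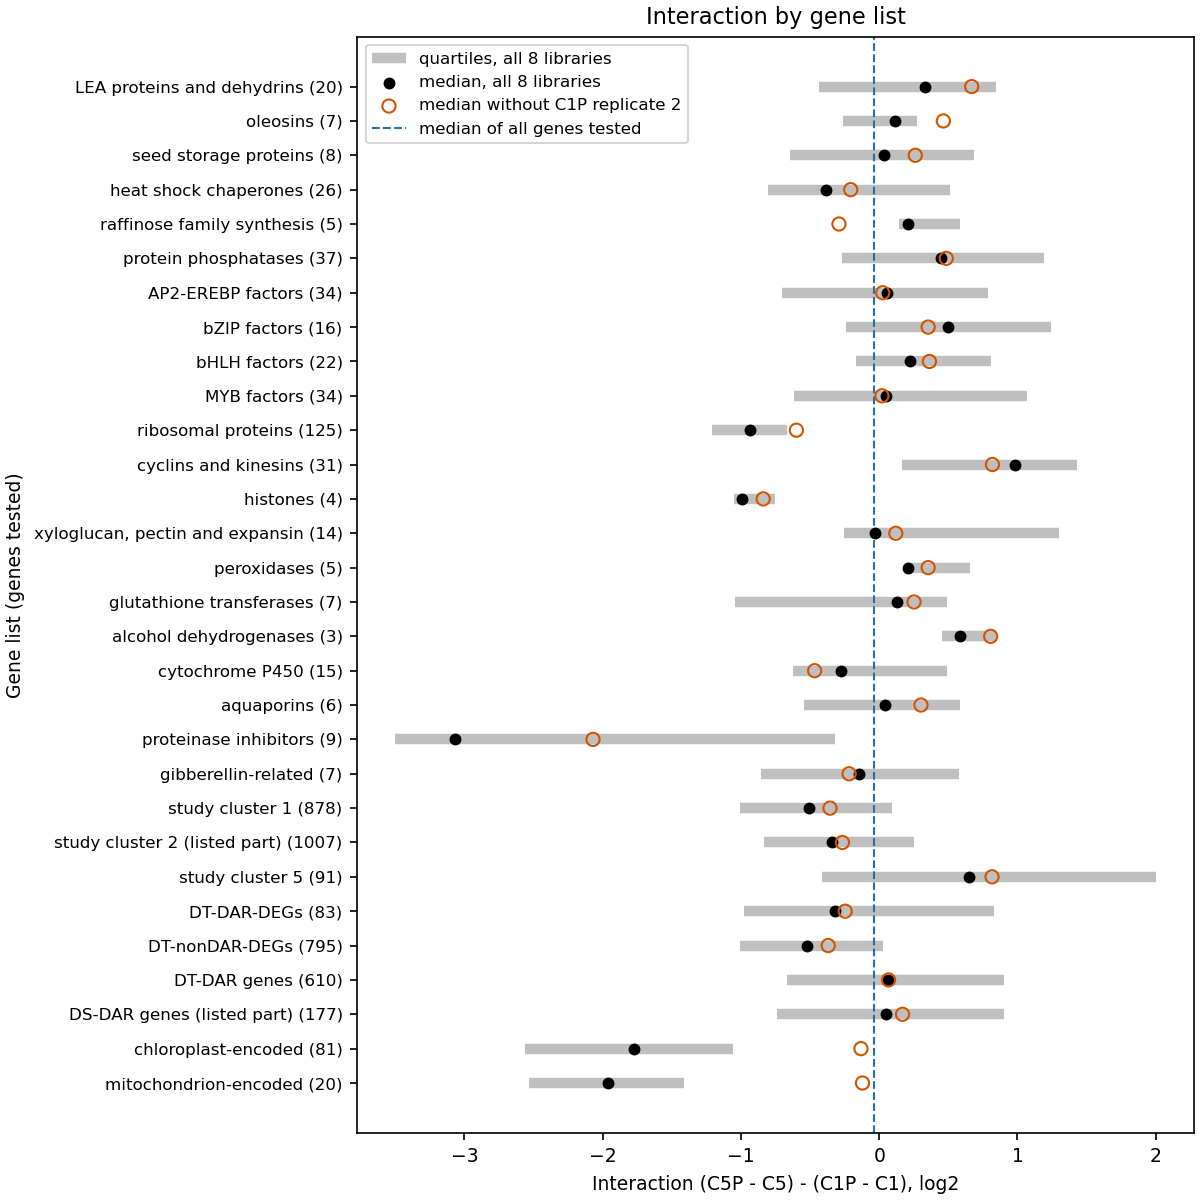
Interaction (log2, horizontal axis) by gene list, with the number of genes tested in brackets, the median (black point) and quartiles (grey bar) in all 8 cotyledon libraries and the median without C1P replicate 2 (open circle). Ribosomal proteins lie to the left and cyclins and kinesins to the right of the median of all genes (dashed line, -0.0384), and the chloroplast- and mitochondrion-encoded lists move from -1.77 and -1.96 to -0.132 and -0.121 without that library.

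To see where cotyledons differed from radicles, one model was fitted to all 16 libraries (25524 genes). The interaction in radicles, (R5P - R5) - (R1P - R1), called 1259 genes in that model (4.93%), and the cotyledon interaction 1870 (7.33%, with 4.15% above and 3.18% below 0), more than with the 8 cotyledon libraries alone. Of the 129 genes above 0 in cotyledons, 47 (36.4%) were called above 0 in radicles as well, where 2.58% of all genes were, and 2 were called below 0. Of the 153 genes below 0, 64 (41.8%) were called below 0 in radicles, where 2.35% of all genes were, and 4 were called above 0. Seen from radicles, the shared genes were 7.13% of the 659 called above 0 and 10.7% of the 600 called below 0. Radicle and cotyledon libraries are different libraries, but whether they came from the same seeds is not stated.

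The median interaction was smaller in radicles. Over the 129 genes it was 2.49 in cotyledons and 1.07 in radicles, and over the 153 genes -2.59 in cotyledons and -1.35 in radicles, both from the 16-library model. Since the genes were chosen on the cotyledon libraries, their cotyledon values are favoured and the smaller radicle medians are a description. The difference between tissues itself called 432 of all genes (1.69%), and among the 282 genes it called 42 of the 129 and 41 of the 153, again on libraries that had chosen the genes.

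**Figure D5:**
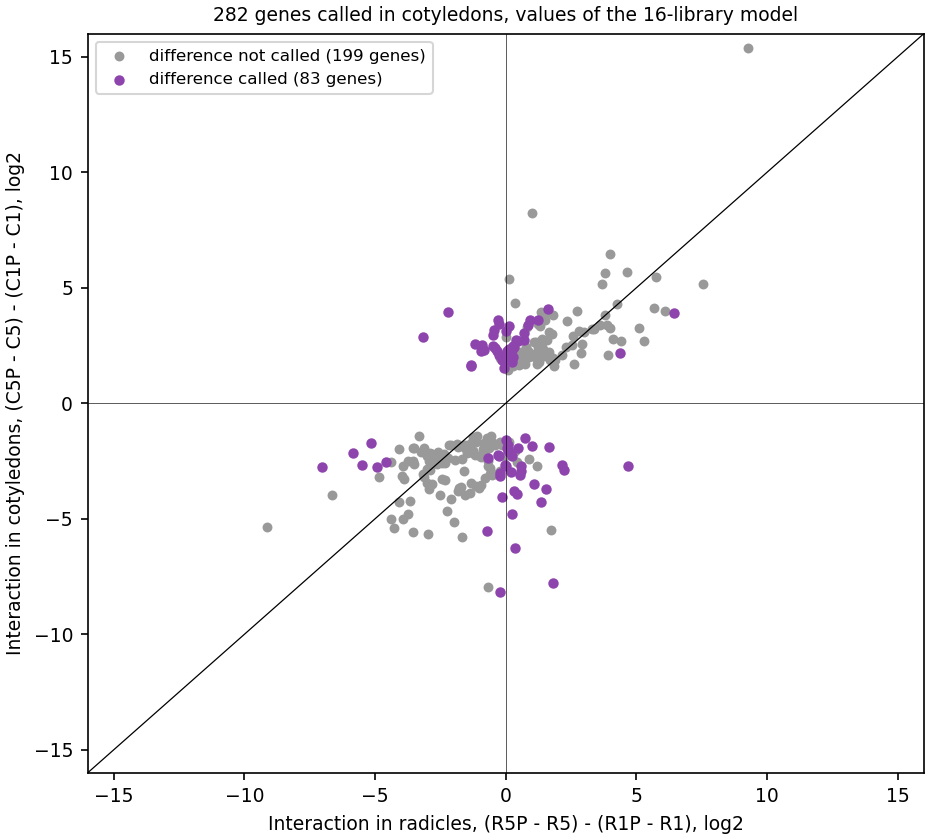
Interaction in cotyledons (vertical axis) and in radicles (horizontal axis) of the 282 genes called in cotyledons (log2, 16-library model), with the line of equal values. Purple points are the 83 genes for which the difference between the tissues was called, and most grey points (199 genes, difference not called) lie in the quadrants of equal sign.

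MtABI3 was among the genes called in both tissues. In radicles it had 16.5 and 13.8 CPM in R5P, 0.758 and 0.619 CPM in R5, 83.8 and 83.2 CPM in R1P, and 23.0 and 22 CPM in R1 (TMM factors of the 16 libraries). The order of the groups was that of cotyledons except that R5P lay below R1, the radicle interaction was 2.56, and the difference between tissues, 0.36, was not called. The stearoyl desaturase (4.65 in radicles), the AP2-EREBP factor (2.16), the Trihelix factor (3.60) and glucomannan mannosyltransferase (-4.38) were likewise called in radicles with no call for the difference. Glucomannan mannosyltransferase was low in radicles, between 0.14 CPM (R5P replicate 2) and 3.73 CPM (R1P replicate 1).

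The bZIP factor MtrunA17_Chr7g0266041 differed between the tissues. In radicles it had 142 and 114 CPM in R5P, 4.31 and 4.49 CPM in R5, 160 and 172 CPM in R1P, and 3.81 and 4.26 CPM in R1. The untreated radicle groups lay close together, in contrast with C5 and C1, and the cotyledon minus radicle interaction was 3.46 (edgeR adjusted p = 0.003). Legumain had 136 and 127 CPM in R5P, 1.92 and 2.44 CPM in R5, 129 and 119 CPM in R1P, and 2.58 and 3.11 CPM in R1, and its difference was 2.25 (adjusted p = 0.026). In untreated 1 mm cotyledons both genes were thus at a level that radicles of that stage did not have, 20.9 and 22.9 CPM for the bZIP factor and 126 and 129 CPM for legumain. The C3H factor MtrunA17_Chr2g0324781 had the same arrangement, with 14.4 and 12.9 CPM in R5 and 14.2 and 15.8 CPM in R1 and a difference of 3.69 (adjusted p = 0.0048).

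Other differences had the opposite arrangement or sign. 6'-Deoxychalcone synthase had 31.0 and 42.8 CPM in R5P, 189 and 189 CPM in R5, 14 and 12.3 CPM in R1P, and 55.5 and 61.6 CPM in R1, so that both treated radicle groups lay below their untreated groups, and the cotyledon minus radicle interaction was -2.83 (adjusted p = 0.0048). The cold-regulated 27/28 gene MtrunA17_Chr1g0153331 was below 0 in both tissues and further below in radicles (-4.93), where R1 was at 0.164 and 0.154 CPM and R1P at 11.9 and 11.4 CPM, with a difference of 2.16 (adjusted p = 0.026). R1 was near the floor, so that the size of this gene's radicle value rests on few reads. For the SOMNUS orthologue the radicle interaction was -2.46 and called, with 75.8 and 96.0 CPM in R5P, 6.78 and 4.64 CPM in R5, 484 and 433 CPM in R1P, and 5.33 and 5.72 CPM in R1. The cotyledon value of 1.85 was called too in the same model, in the opposite direction, and the difference of 4.31 passed the test (edgeR adjusted p = 0.0052).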

How the data were processed

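Total RNA of cotyledons and radicles was sequenced by the authors on a BGISEQ-500 as 50 bp single-end reads. Per the labels and methods, reads were checked with FastQC and quantified with Salmon 1.2 against the *M. truncatula* transcriptome of genome version Mtv5, and the authors deposited estimated counts per gene (44473 genes, 16 libraries). Salmon divides reads among similar sequences, and 15.3 to 20% of values per cotyledon library were not whole. Genes with more than 4 of 8 values not whole are named as sharing reads. Annotation came from the study's supplementary tables (4748 genes of the table), and 0 identifiers matched RefSeq.

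The estimated counts were rounded. Genes were filtered with filterByExpr, scaled by TMM and tested with edgeR 4.0.16 in R 4.3.3 by the quasi-likelihood test, with Benjamini-Hochberg adjustment over all genes tested. Calls required both an adjusted p below 0.05 and a log2 value beyond 1 in size. CPM are counts scaled by library total and, except for the tissue markers, TMM factor. "Rose" and "fell" refer to called PEG responses. All 4 cotyledon groups entered 1 model without a block, and the comparison with radicles used 1 model of 16 libraries. Errors are the SE of the log2 value implied by the F statistic of the quasi-likelihood test, with 2 libraries per group. The spread behind these SE was pooled over the libraries of the model and moderated across genes, and may be partly technical. The floor was 3 counts per library.

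Members, lists and named genes were chosen with earlier results of these data known. Named genes were, in each direction, the 8 called genes of largest value and the 8 annotated called genes of lowest adjusted p (mean of at least 10 CPM, for the largest values also the same sign without each library), up to 3 called members of each list, and genes that the study names. Alternatives were RLE factors, library totals, DESeq2 1.42.0, limma 3.58.1 (voom with quality weights), other filters and thresholds, a replicate block, and leaving out each library. Scripts were tested on simulated data. Accessibility and histone data were not used here.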

Additional observations from a re-analysis of the deposited data

Results flagged for a closer look

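The PEG response differed between the stages in 282 genes of the cotyledon by the edgeR test of the interaction, and the interaction differed between cotyledons and radicles in 432 genes by the edgeR test over 16 libraries. The values that follow are cotyledon minus radicle (log2) for the named genes that passed this second test, and the cotyledon libraries that chose most of them also enter it.

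The difference was above 0 for MtrunA17_Chr6g0453161 (6.16), the SOMNUS orthologue MtrunA17_Chr4g0040391 (4.31), MtrunA17_Chr2g0279571 (3.89), the C3H factor MtrunA17_Chr2g0324781 (3.69), the bZIP factor MtrunA17_Chr7g0266041 (3.46), MtrunA17_Chr3g0126451 (2.72), the ABC transporter MtrunA17_Chr1g0202221 (2.45), the angiotensin-converting enzyme 2 gene MtrunA17_Chr7g0263161 (2.36) and legumain MtrunA17_Chr4g0056561 (2.25). It was also above 0 for the carboxylesterase MtrunA17_Chr6g0477231 (2.85) and the cold-regulated 27/28 gene MtrunA17_Chr1g0153331 (2.16), whose interactions were below 0 in both tissues. In R1 the carboxylesterase had 0.164 and 0.115 CPM and the cold-regulated gene 0.164 and 0.154 CPM. Both were near the floor there, so that the sizes of their differences rest on few reads.

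The difference was below 0 for the CEP13/CEP14 precursor MtrunA17_Chr2g0284361 (-9.58, with 0 counts in both C5P libraries, so that its size is no bound), MtrunA17_Chr5g0417371 (-5.62), the DCC1-like oxidoreductase MtrunA17_Chr3g0117991 (-5.11), MtrunA17_Chr5g0395561 (-5.01), 6'-deoxychalcone synthase MtrunA17_Chr3g0121001 (-2.83), the phosphoric monoester hydrolase MtrunA17_Chr3g0121431 (-2.21) and the MYB-HB-like factor MtrunA17_Chr5g0402631 (-1.93). It was also below 0 for the alcohol dehydrogenase MtrunA17_Chr3g0125911 (-3.71) and for MtrunA17_Chr2g0323551 (-2.54), whose interactions were above 0 in both tissues. The DCC1-like oxidoreductase was called in opposite directions, with -2.88 in cotyledons and 2.23 in radicles.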

How the results depend on the processing

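The 282 genes called for the interaction became 1784 with DESeq2, 1186 without a filter on low counts, 29 with a test against a log2 change of 1 (TREAT), 1870 in the 16-library model and 0 to 987 when 1 library was left out. With RLE factors 252 were called, with library totals 300, with voom quality weights 222, with a stricter filter 309 and, chosen after seeing the data, without organelle-encoded genes 290. Leaving out 1 library gave 2914 to 5374 genes for C5P against C5 (4879 with all), 3438 to 6943 for C1P against C1 (6613), 410 to 2409 for C5 against C1 (1988), 125 to 2924 for C5P against C1P (1433) and 132 to 1152 for the difference between tissues (432). The stage comparisons under these alternatives were also added after seeing the data.

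With the replicate number as a block, 2 genes were called for the interaction, 1260 for C5 against C1 and 391 for C5P against C1P. The numbers are not stated to mark a shared batch. Deviations of same-numbered libraries correlated between -0.38 and 0.178 over the 6 pairs of groups. Whether such libraries shared a batch was not tested.

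Of the 42 named genes called, 42 were also called with DESeq2, in the 16-library model and without C1P replicate 1, 40 with RLE factors, 38 with library totals, 35 with voom weights, 35 without C1P replicate 2, 22 without C5 replicate 2, and 0 to 3 with the block or without any of the 5 other libraries. None changed sign in these alternatives, which reuse the libraries that chose most of these genes, so the kept sign is no separate support. Across the values of named genes and lists and the calls of the interaction by direction, 965 alternatives were labelled as the same. Of the others, 282 lost a named gene's call, 10 gained one and 221 moved a list's value or a count by direction. For named genes the same meant an equal direction and call. For lists and counts it meant a median within the spread of the replicates or a count within a set factor. With 2 libraries per group, the cause of these changes was not tested.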
